A study of Homo sapiens with 21 samples.

Results

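The genes described here are the 10 best known members of the BCL2 family of apoptosis regulators, out of 42339 gene identifiers counted in BT-549 cells. They were taken by name as a family, with earlier results of these data known. They comprise the pro-survival genes BCL2, BCL2L1 and MCL1, the BH3-only genes BCL2L11, BBC3, PMAIP1, BMF and BID, and the effectors BAX and BAK1. BT-549 is an established triple-negative breast cancer (TNBC) line with wild-type BRCA1. RNA from 21 cultures was sequenced as stranded mRNA libraries, with 3 cultures in each of 7 groups. The 2D cells grew as monolayers in medium with serum and insulin. The 3D cells were mammospheres at serial passage S6, grown in low-attachment plates in a defined mammosphere medium, and a further group of S6 3D cells received 0.75 μM GO-203, an inhibitor of the MUC1-C cytoplasmic domain. The tet-MUC1shRNA mammospheres (S6) and the tet-MYCshRNA mammospheres (labelled S8) carried a doxycycline (DOX)-inducible short hairpin RNA and were treated with 0.1% DMSO as vehicle or with 500 ng/ml DOX. MUC1-C is the oncogenic subunit of MUC1 that the study links to the cancer stem cell state.

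Several features limit these groups as models. The 2D and 3D cells differ in medium and passage as well as in growth format, and these cannot be told apart. Each silenced line carried 1 hairpin, and a DOX-treated line with a control hairpin was not analysed here, so effects of the antibiotic and of silencing cannot be told apart. The 3D cells used as controls for GO-203 are labelled as control, with no vehicle named, while the paper describes this comparison as GO-203 against vehicle. They are also the 3D side of the comparison with 2D cells. In bulk RNA, fewer cells that express a gene and less RNA per cell cannot be told apart. The labels do not say whether the cultures were started independently, so the p-values measure the spread between these samples, which may be technical.

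Proteins of the BCL2 family decide whether the outer mitochondrial membrane stays intact. BAX and BAK, the product of BAK1, form the pores that release cytochrome c, and BCL2, BCL-XL (from BCL2L1) and MCL1 hold them in check. BH3-only proteins start the process, either by occupying the pro-survival proteins or by switching on BAX and BAK. Among them, BIM (from BCL2L11) and PUMA (from BBC3) bind every pro-survival member, NOXA (from PMAIP1) prefers MCL1, BMF is linked to loss of attachment, and BID carries the signal from death receptors. MCL1 is a short-lived protein on which many breast cancer cells depend, and MYC is known for raising both growth and sensitivity to apoptosis.

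Library totals ran from 38026597 to 99751717 counts. None of the 21 pairs of replicates was a repeat of 1 library, since chi-square over its degrees of freedom was at least 4.13 and reached 45.6. Replicate 1 of the DOX-treated tet-MYCshRNA mammospheres stood apart from its partners (45.6 and 31.5), so changes on MYC silencing that turned with it are given with and without that library. MUC1 fell by 2.06 on the log2 scale with DOX in the tet-MUC1shRNA line and MYC by 0.62 in the tet-MYCshRNA line, where MUC1 rose by 1.25. Of the markers fixed for a mesenchymal TNBC line, all 5 expected to be present were counted in every library, VIM at 1067 to 2507 CPM (counts per 1000000 of the TMM-scaled library total), while of the 7 expected to be absent or low EPCAM stayed at or below 0.122 CPM and PGR at or below 0.0706 CPM. ESR1 reached 1.49 CPM, and ERBB2 was counted in every library at 18.2 to 42.3 CPM. The mesenchymal cadherin CDH2 differed strongly between groups, with 451 ± 13.7 CPM (SD, n = 3) in 2D cells, 50.2 ± 1.09 in 3D cells, and 11.8 ± 0.885 without and 75.1 ± 1.88 with DOX in the tet-MUC1shRNA line. The endothelial marker PECAM1 had 0.0118 ± 0.0204 CPM in 2D and 6.62 ± 0.688 CPM in 3D cells. The epithelial cadherin CDH1 was at 1.45 ± 0.128 CPM in 2D cells and had no counts in the 3D libraries, and the leukocyte marker PTPRC was at 1.28 ± 0.218 and 0.0621 ± 0.0465 CPM. According to the paper, monolayer BT-549 cells were the source of the mammospheres, and cell identity was checked at intervals. Whether the sequenced 2D and 3D cells came from the same stock of BT-549 cannot be told from these data, which bears on every difference between them. The share of mitochondrially encoded counts moved with the groups. It was 5.21% to 5.24% in 2D and 2.31% to 2.72% in 3D cells, 3.34% to 4.40% with GO-203, 2.61% to 2.77% with vehicle and 6.36% to 6.72% with DOX in the tet-MUC1shRNA line, and it overlapped in the tet-MYCshRNA line at 3.37% to 4.08% and 3.96% to 5.07%. The part of these shifts in the results was not tested.

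Levels of different genes can be compared only per length, and TPM (counts divided by the merged exon length of GENCODE v44 and scaled to a total of 1000000 transcripts per library) were used for this purpose. MCL1 (ENSG00000143384.14, chr1:150560895-150579738, minus strand) was the most abundant member in every group, at 606 ± 6.49 TPM (SD, n = 3) in 3D cells, where it made up 70.0% of the TPM of the 10 genes. In 2D cells MCL1 was at 192 ± 10.3 TPM and made up 53%. BCL2L1 (ENSG00000171552.14, chr20:31664452-31723989, minus strand) followed at 120 ± 1.12 TPM in 3D cells, then BAX (ENSG00000087088.20, chr19:48954815-48961798, plus strand) at 67.2 ± 2.97 TPM. BID, BAK1, BCL2L11, BBC3 and PMAIP1 lay between 28.6 and 7.20 TPM in 3D cells, with BCL2 at 1.97 ± 0.423 TPM and BMF at 0.988 ± 0.22 TPM below them. The spread over groups was widest for BMF, whose highest and lowest group means differed 7.19-fold, followed by BCL2L1 (5.94-fold) and BBC3 (5.31-fold). It was narrowest for BID at 1.86-fold.

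**Figure D1:**
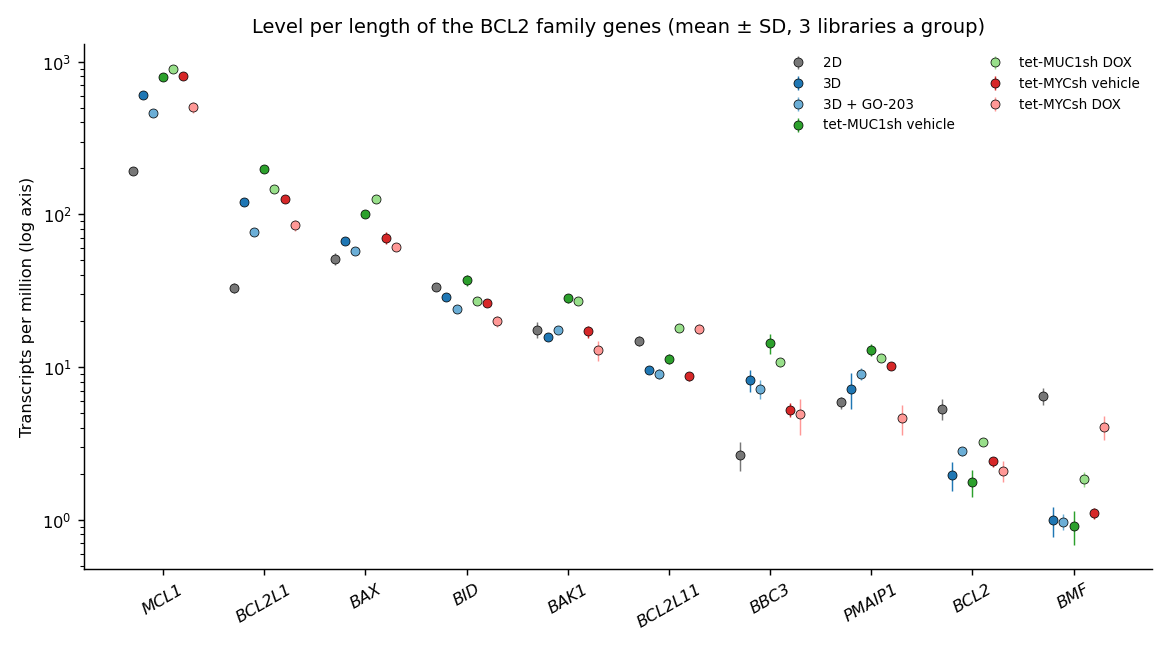
Mean TPM (log axis) of the 10 genes in the 7 groups, with SD over 3 libraries as bars, and genes ordered by their level in 3D cells. MCL1 stood at 192 TPM or more in every group, while BMF lay between 0.907 and 6.50 TPM.

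RefSeq promoter windows of the human genome (GRCh38), from 250 bases before to 50 bases after a transcription start, were at hand for 9 of the 10 genes, and there was no entry for MCL1. They were searched on both strands for the E-box CACGTG (the core site of MYC with MAX), the FOXO site GTAAACA, the cyclic AMP response element TGACGTCA, and the composite site TGATGNAA of ATF4 and CEBP factors. The E-box was present in 7.26% of the 35116 windows of all genes, the FOXO site in 3.42%, the ATF4 site in 3.62% and the cyclic AMP element in 1.85%. BAX held 4 E-boxes, at 138, 93, 45 and 14 bases before its start, BBC3 held 1 and BID held 1 in 2 of its 5 overlapping or neighbouring windows, and BCL2L11 held 1 FOXO site. BCL2, BCL2L1, PMAIP1, BMF and BAK1 held none of the 4 sequences in these windows. The 4 genes with a match are shown, and the matches are a description of letters, not of binding. Whether they bear on any change in these data was not tested. Each sequence is the 250 bases before the start, read 5′ to 3′ on the gene's strand, with E-boxes or the FOXO site in capitals.
BCL2L11, chr2:111120664-111120913, plus strand: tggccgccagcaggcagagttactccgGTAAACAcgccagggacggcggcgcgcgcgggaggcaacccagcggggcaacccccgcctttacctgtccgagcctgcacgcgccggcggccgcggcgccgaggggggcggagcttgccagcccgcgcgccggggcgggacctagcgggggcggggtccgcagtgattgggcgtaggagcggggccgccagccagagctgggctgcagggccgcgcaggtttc
BBC3, chr19:47232668-47232917, minus strand: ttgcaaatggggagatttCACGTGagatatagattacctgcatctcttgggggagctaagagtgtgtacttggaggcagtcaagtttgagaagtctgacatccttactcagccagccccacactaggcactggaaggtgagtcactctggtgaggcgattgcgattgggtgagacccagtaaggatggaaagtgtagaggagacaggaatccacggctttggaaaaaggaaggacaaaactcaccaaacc
BID, chr22:17773984-17774233, minus strand: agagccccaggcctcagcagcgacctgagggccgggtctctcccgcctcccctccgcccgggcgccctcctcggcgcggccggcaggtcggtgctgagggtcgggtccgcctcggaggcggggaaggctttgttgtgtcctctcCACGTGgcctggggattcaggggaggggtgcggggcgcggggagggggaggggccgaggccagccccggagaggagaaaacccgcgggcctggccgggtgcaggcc
BAX, chr19:48954625-48954874, plus strand: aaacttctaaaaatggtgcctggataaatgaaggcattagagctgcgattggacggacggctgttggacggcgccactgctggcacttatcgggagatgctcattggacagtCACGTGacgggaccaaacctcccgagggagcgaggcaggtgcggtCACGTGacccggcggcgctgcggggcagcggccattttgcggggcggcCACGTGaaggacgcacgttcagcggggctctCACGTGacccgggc

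In GENCODE v44, none of the BCL2L11 window overlaps an exon of the gene, whereas 24.0% of the BAX window, 13.2% of the BID window and 39.6% of the BBC3 window lie within exons of transcripts that start further upstream.

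Growth as mammospheres went with higher MCL1, BCL2L1 and BBC3 and lower BMF, BCL2 and BCL2L11. In the comparison of 3D with 2D cells, 4 of the 10 genes were higher and 4 were lower at an adjusted p below 0.1 (edgeR's quasi-likelihood test with Benjamini-Hochberg adjustment over all genes tested, used for every adjusted p unless DESeq2 is named). Of 19190 genes tested, 32.0% were higher and 31.7% lower, so a share of 8 in 10 members is to be read against 63.7% of all genes. Past a fold change of 1.5 as well, 3 members were higher and 3 lower, against 17.9% and 21.1% of all genes. The libraries of both groups did not overlap for 8 members, against 64.3% of all genes. PMAIP1 and BAK1 did not pass. The question was which transcripts accompany the selection of stem-like cells by serial passage.

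Among the pro-survival genes, BCL2L1 was counted at 36.9, 39.2 and 34.1 CPM in the 3 2D libraries and at 129, 127 and 135 CPM in the 3 3D libraries. The groups lay far apart, and the log2 fold change was 1.88 ± 0.07 (SE, adjusted p = 4.19e-13), a 3.69-fold rise. MCL1 was at 296, 316 and 342 CPM in 2D cells against 977, 957 and 990 CPM in 3D cells. Every 3D library was above every 2D library, with a rise of 3.19-fold (log2 1.67 ± 0.06, adjusted p = 2.29e-13). BCL2 (ENSG00000171791.14, chr18:63123346-63320128, minus strand) moved the other way. It was at 19.0, 15.2 and 19.2 CPM in 2D cells and 5.20, 7.73 and 6.24 CPM in 3D cells, and it fell by 62.7% (log2 -1.42 ± 0.14, adjusted p = 1.64e-07). There were 36.6 ± 5.23 MCL1 transcripts for each BCL2 transcript (TPM ratio, SD, n = 3) in 2D cells and 318 ± 65.1 in 3D cells. The ratio of MCL1 to BCL2L1 was 5.88 ± 0.782 in 2D and 5.05 ± 0.0999 in 3D cells, with each 2D library above each 3D library (untested).

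The BH3-only genes did not move together. BMF (ENSG00000104081.14, chr15:40087890-40108892, minus strand) showed the widest difference of all members. It was at 7.83, 9.70 and 10.8 CPM in 2D cells and at 1.71, 1.33 and 1.13 CPM in 3D cells, the latter resting on 69 to 84 counts per library. The groups did not overlap and BMF fell by 84.8% (log2 -2.72 ± 0.18, adjusted p = 1.22e-09). BCL2L11 (ENSG00000153094.24, chr2:111119378-111168444, plus strand) was at 23.3, 28.2 and 28.2 CPM in 2D cells and 16.1, 17.1 and 16.9 CPM in 3D cells. It was lower in each 3D library, by 0.61 ± 0.08 on the log2 scale (adjusted p = 9.33e-06). BBC3 (ENSG00000105327.18, chr19:47220822-47232766, minus strand), a p53 target, rose from 1.65, 2.76 and 2.38 CPM to 7.15, 7.41 and 5.65 CPM. That was a 3.07-fold difference without overlap (adjusted p = 1.10e-06). BID (ENSG00000015475.19, chr22:17734138-17774770, minus strand) fell by 0.21 ± 0.07 on the log2 scale (adjusted p = 0.0129), a difference that lost its call without 3D replicate 2 (adjusted p = 0.113). PMAIP1 (ENSG00000141682.12, chr18:59899996-59904305, plus strand) was at 2.94, 3.56 and 3.74 CPM in 2D cells and 3.15, 3.67 and 5.42 CPM in 3D cells. These ranges overlapped, with a log2 fold change of 0.32 (95% interval -0.10 to 0.74, adjusted p = 0.178), with 0.50 (adjusted p = 0.0450) without 3D replicate 1 and 0.06 (adjusted p = 0.810) without 3D replicate 3. Together, the transcripts of BCL2L11 and BMF amounted to 9.24 ± 0.684 for every 100 pro-survival transcripts in 2D cells and 1.45 ± 0.0492 in 3D cells, on the TPM scale. The sum over all BH3-only members changed less, from 63.2 ± 2.59 TPM in 2D cells to 54.6 ± 0.263 TPM in 3D cells.

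The effectors moved little by comparison. BAX was at 37.1, 34.1 and 34.2 CPM in 2D cells and 47.0, 42.8 and 45.0 CPM in 3D cells, a 1.33-fold rise without overlap (adjusted p = 5.90e-05). BAK1 (ENSG00000030110.13, chr6:33572547-33580293, minus strand) was at 11.1, 10.4 and 9.30 CPM in 2D cells and 8.90, 9.06 and 8.97 CPM in 3D cells. On this scale each 3D library was below each 2D library, but the difference of -0.14 on the log2 scale did not pass (95% interval -0.37 to 0.09, adjusted p = 0.292). The 3 pro-survival genes made up 63.6% ± 1.35 of the TPM of the 10 genes in 2D cells and 84.1% ± 0.212 in 3D cells.

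**Figure D2:**
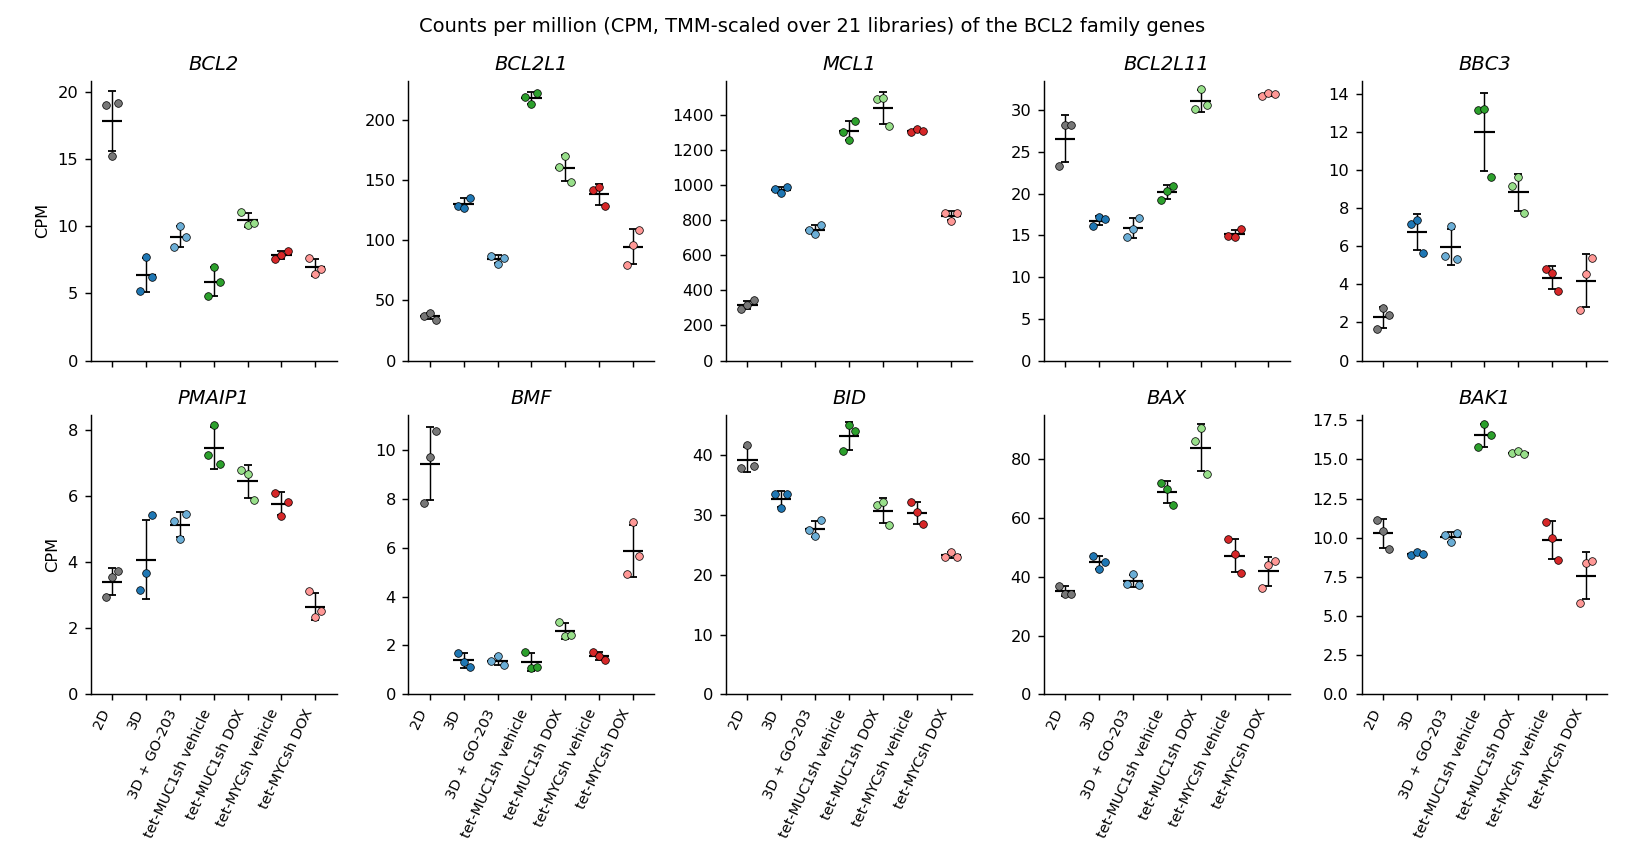
CPM of the 10 genes in the 21 libraries, scaled by TMM factors over all of them, with points for libraries and lines for the mean and SD of each group (n = 3). MCL1 ran from 296 CPM in a 2D library to 1495 CPM in a DOX-treated tet-MUC1shRNA library, while BMF was highest in 2D cells at 7.83 to 10.8 CPM.

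Silencing of MUC1 went with higher BCL2, BCL2L11 and BMF and lower BCL2L1, BBC3 and BID. Of the 10 genes, 5 were higher and 4 lower, where 30.7% and 31.6% of all 19220 genes tested were higher and lower. Of the genes that passed, 49.3% were higher, a share that became 64.4% when libraries were scaled by their totals alone, a scaling that moved the median of all genes from 0.02 to 0.19 on the log2 scale and left 5 members higher and 3 lower. Among members that passed, this scaling moved BCL2L1 from -0.46 to -0.29, BBC3 from -0.44 to -0.28, BAX from 0.28 to 0.45 and PMAIP1 from -0.22 to -0.05 (adjusted p = 0.707) on the log2 scale. Mitochondrially encoded counts were 2.61% to 2.77% with vehicle and 6.36% to 6.72% with DOX, and their part in these changes was not tested. The comparison asked what DOX-induced loss of MUC1 changes in S6 mammospheres. BCL2, BCL2L11 and BMF were the members past a fold change of 1.5, all of them higher, and none of the lower members passed it, against 17.6% of all genes higher and 14.6% lower by this rule. In either direction 62.2% of all genes passed, and for 62.8% the groups did not overlap, as for 9 members.

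BCL2 rose from 4.80, 6.95 and 5.87 CPM in the vehicle-treated libraries to 11.0, 10.1 and 10.2 CPM with DOX. The libraries did not overlap, with a 1.76-fold change (log2 0.82 ± 0.12, adjusted p = 5.12e-06). BCL2L1 was at 219, 213 and 222 CPM with vehicle, its highest level in the series, and at 161, 170 and 148 CPM with DOX. It fell by 27.3% (adjusted p = 1.39e-08). MCL1 was at 1303, 1260 and 1367 CPM with vehicle and 1492, 1495 and 1337 CPM with DOX, and the groups overlapped on this scale, though not when scaled over these 6 libraries alone. The small rise of 0.13 ± 0.04 on the log2 scale (adjusted p = 0.0141) did not pass when all 21 libraries entered 1 fit (adjusted p = 0.133) and was 0.29 (adjusted p = 1.78e-06) with library size alone. MCL1 transcripts per BCL2L1 transcript rose from 4.05 ± 0.0844 to 6.09 ± 0.156 (TPM ratio, SD, n = 3, untested), and those per BCL2 transcript were 463 ± 92.0 and 280 ± 18.4.

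BCL2L11 was at 19.2, 20.3 and 20.8 CPM with vehicle and 30.1, 32.6 and 30.7 CPM with DOX. Each DOX library was well above each vehicle library, a 1.53-fold rise (log2 0.62 ± 0.07, adjusted p = 6.92e-08). BMF was at 1.74, 1.07 and 1.12 CPM with vehicle, from 46 to 67 counts per library, and at 2.97, 2.39 and 2.43 CPM with DOX. It rose 1.98-fold (log2 0.99 ± 0.21, adjusted p = 5.23e-04), with the wider error that its low counts give. BID fell from 40.6, 45.0 and 43.9 CPM to 31.6, 32.2 and 28.2 CPM, by 0.50 ± 0.06 on the log2 scale (adjusted p = 4.28e-07). BBC3 was at 13.2, 13.2 and 9.66 CPM with vehicle and 9.16, 9.62 and 7.75 CPM with DOX, lower by 0.44 ± 0.11 (log2, adjusted p = 2.24e-03), although replicate 3 of the vehicle group lay next to the DOX libraries. PMAIP1 changed by -0.22 ± 0.11 on the log2 scale, at the edge of the threshold (adjusted p = 0.0992), and did not pass in 4 of the 6 fits without 1 library, nor with DESeq2 (adjusted p = 0.189). Without replicate 2 of the vehicle group its log2 fold change was -0.15 (adjusted p = 0.309).

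BAX was at 72.0, 69.8 and 64.6 CPM with vehicle and 86.3, 90.9 and 75.0 CPM with DOX, the highest BAX level of the 7 groups. It rose 1.21-fold without overlap (adjusted p = 2.60e-04). BAK1 was at 15.8, 17.2 and 16.6 CPM against 15.4, 15.5 and 15.4 CPM, with a log2 fold change of -0.11 (95% interval -0.27 to 0.05, adjusted p = 0.220) whose sign turned to 0.05 with library size alone. The share of the 10 genes' TPM held by the pro-survival genes was 82.9% ± 1.07 with vehicle and 82.5% ± 0.255 with DOX.

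**Figure D3:**
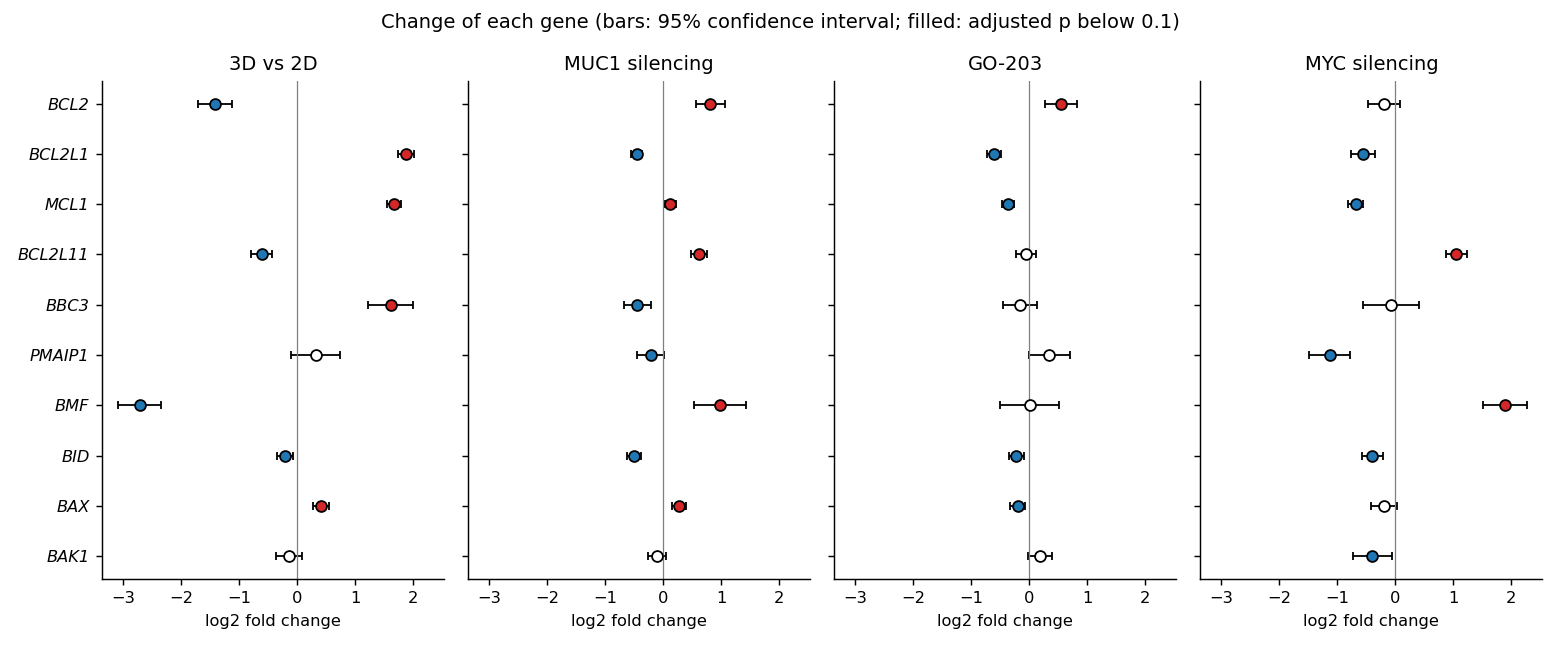
Log2 fold change of each gene in the 4 comparisons with its 95% confidence interval, filled where the adjusted p was below 0.1 (red for higher, blue for lower). BMF ranged from -2.72 in 3D against 2D cells to 1.89 on MYC silencing and was at 0.01 with GO-203.

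Silencing of MYC went with more BMF and BCL2L11 transcripts and fewer of MCL1. BMF rose 3.71-fold and BCL2L11 2.08-fold, and MCL1, BCL2L1, PMAIP1, BID and BAK1 fell. In total 2 genes were higher and 5 lower, where 30.3% and 28.1% of 19951 genes were higher and lower and 58.5% passed in either direction. Past a fold change of 1.5 there were 2 higher and 2 lower, against 20.6% and 17.1% of all genes. The groups did not overlap for 7 members, against 59.7% of all genes. MYC itself was at 418 ± 32.6 CPM (SD, n = 3) with vehicle and 275 ± 32.9 CPM with DOX, so the silencing seen in RNA was partial. These DOX libraries overlapped vehicle-treated tet-MUC1shRNA mammospheres in MYC (242 ± 9.07 CPM) and lay above 2D cells (87.1 ± 5.46 CPM). With DOX in the tet-MUC1shRNA line MYC was higher, at 290 ± 16.5 CPM.

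BMF was at 1.73, 1.56 and 1.39 CPM with vehicle and 4.90, 7.03 and 5.65 CPM with DOX. No library of one group came near the other (log2 1.89 ± 0.17, adjusted p = 7.16e-06), and without replicate 1 of the DOX group the value was 1.99. BCL2L11 was at 15.0, 14.8 and 15.7 CPM with vehicle and 31.6, 32.1 and 31.9 CPM with DOX. The libraries of each group lay close together, and the rise was 1.06 ± 0.08 on the log2 scale (adjusted p = 2.91e-06). PMAIP1 was at 6.11, 5.41 and 5.81 CPM with vehicle and 3.12, 2.34 and 2.52 CPM with DOX. It fell by 54.4% (adjusted p = 1.52e-04), the only comparison in which PMAIP1 changed beyond 1.5-fold. BID fell from 32.0, 30.4 and 28.3 CPM to 23.0, 23.8 and 22.9 CPM (log2 -0.39 ± 0.08, adjusted p = 2.26e-03). BBC3 was at 4.79, 4.60 and 3.68 CPM with vehicle and 2.65, 4.55 and 5.38 CPM with DOX. The log2 fold change of BBC3 was -0.07 (95% interval -0.56 to 0.41, adjusted p = 0.802), and without the deviating DOX replicate 1 its sign turned (0.15, adjusted p = 0.433). BCL2L11 and BMF together amounted to 1.04 ± 0.0335 per 100 pro-survival transcripts with vehicle and 3.73 ± 0.231 with DOX, the highest value among the mammosphere groups and below that of 2D cells. The sum over all BH3-only members was 51.5 ± 1.08 TPM with vehicle and 51.4 ± 2.92 TPM with DOX.

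MCL1 was at 1301, 1319 and 1309 CPM with vehicle and 839, 797 and 841 CPM with DOX. It fell by 37.6% without overlap (log2 -0.68 ± 0.06, adjusted p = 4.59e-06). BCL2L1 fell from 141, 145 and 128 CPM to 79.4, 96.0 and 109 CPM, by 0.56 ± 0.09 on the log2 scale (adjusted p = 4.68e-04), with the lowest value in DOX replicate 1. BCL2 was at 7.55, 7.88 and 8.17 CPM with vehicle and 7.63, 6.42 and 6.80 CPM with DOX. Here the call depended on the deviating library: the log2 fold change of BCL2 was -0.19 (adjusted p = 0.215) with it and -0.29 (adjusted p = 0.0530) without it. Of the effectors, BAK1 fell from 11.0, 9.97 and 8.60 CPM to 5.83, 8.41 and 8.49 CPM (log2 -0.39 ± 0.15, adjusted p = 0.0476). Without DOX replicate 1 its value was -0.26 (adjusted p = 0.0899), and the call was lost without vehicle replicate 1 or 2. BAX was at 52.8, 47.6 and 41.4 CPM with vehicle and 36.2, 44.1 and 45.5 CPM with DOX. These overlapped, with a log2 fold change of -0.19 (95% interval -0.41 to 0.04, adjusted p = 0.145). BAX passed without vehicle replicate 3 (-0.29, adjusted p = 0.0614) and with library size alone (-0.21, adjusted p = 0.0859), and was at -0.11 (adjusted p = 0.292) without DOX replicate 1.

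GO-203 moved fewer members, and of these BCL2L1 alone passed a fold change of 1.5. BCL2 was higher and BCL2L1, MCL1, BID and BAX were lower, that is 1 gene up and 4 down, where 11.1% of 18488 genes were higher and 12.9% lower, together 24.1%. By fold change as well, 2.02% of all genes were lower, and 33.7% had groups that did not overlap, as did 6 members. The comparison addressed pharmacological targeting of MUC1-C in S6 3D cells, in which MUC1 transcripts were not lower but higher by 0.33 on the log2 scale. The duration of treatment for these libraries is not given in the sources used here.

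BCL2L1 was at 129, 127 and 135 CPM in control 3D cells and 86.9, 80.6 and 84.9 CPM with GO-203. The groups were well separated, and BCL2L1 fell by 34.6% (log2 -0.61 ± 0.06, adjusted p = 1.01e-07). MCL1 was at 977, 957 and 990 CPM in the controls and 744, 720 and 774 CPM with GO-203, lower by 22.5% (adjusted p = 5.25e-06). BCL2 rose from 5.20, 7.73 and 6.24 CPM to 8.44, 9.99 and 9.19 CPM, 1.46-fold without overlap (adjusted p = 5.75e-03). MCL1 transcripts per BCL2 transcript were 318 ± 65.1 in the controls and 165 ± 17.1 with GO-203.

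BID fell by 0.22 ± 0.07 (log2, adjusted p = 0.0199) and BAX by 0.20 ± 0.06 (log2, adjusted p = 0.0221), and BAX did not pass in 3 of the 6 fits without 1 library, with -0.17 (adjusted p = 0.126) without 3D replicate 1. BMF was at 1.71, 1.33 and 1.13 CPM in the controls and 1.37, 1.56 and 1.21 CPM with GO-203, with an interval of -0.50 to 0.52 on the log2 scale around 0.01 (adjusted p = 0.984). BCL2L11 had a log2 fold change of -0.06 (95% interval -0.23 to 0.12, adjusted p = 0.717), which leaves out the size of its rise on silencing of MUC1 or MYC. BBC3 was at -0.16 (95% interval -0.46 to 0.14) and BAK1 at 0.18 (95% interval -0.02 to 0.39). PMAIP1 was at 3.15, 3.67 and 5.42 CPM in the controls and 5.26, 4.72 and 5.46 CPM with GO-203. The highest control library overlapped the treated ones (log2 0.35, adjusted p = 0.181), and without that library, 3D replicate 3, PMAIP1 passed (log2 0.61, adjusted p = 0.0102). Without 3D replicate 1 the value was 0.19 (adjusted p = 0.562).

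**Figure D4:**
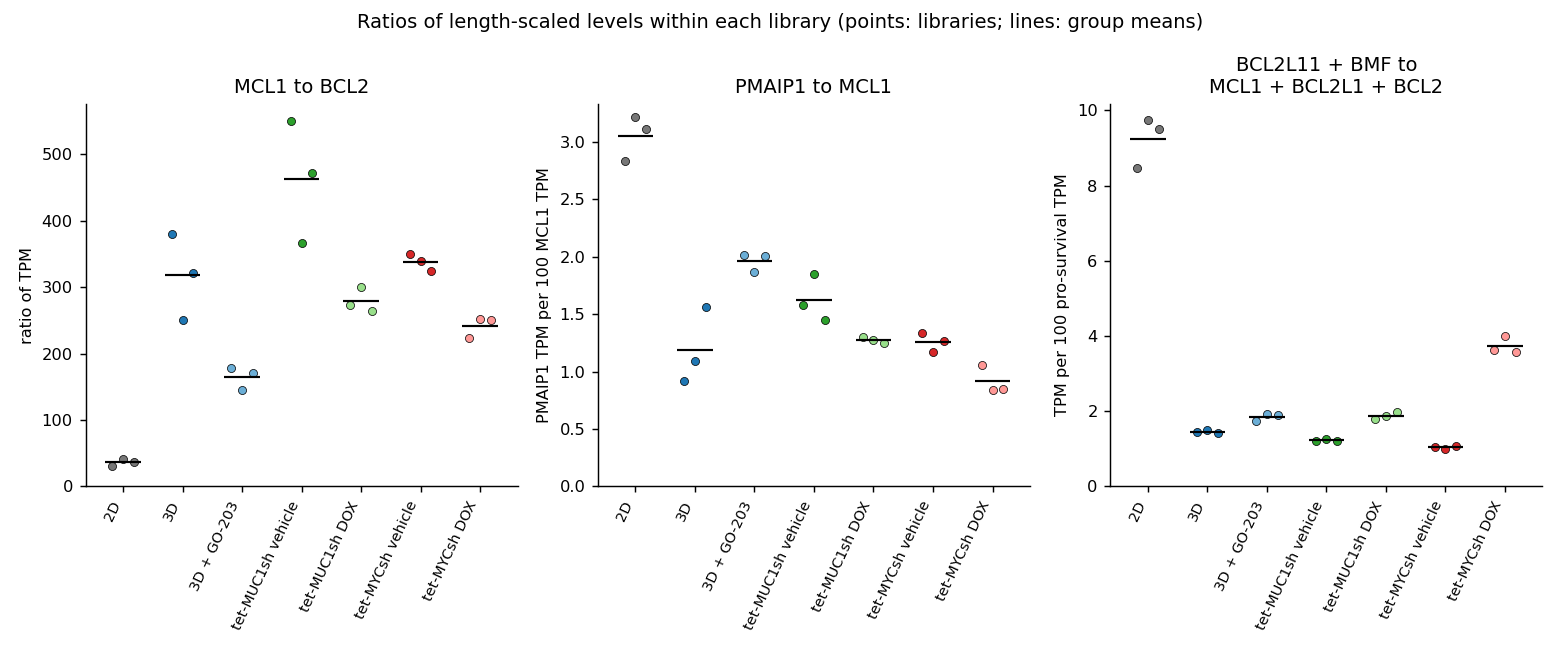
Ratios of TPM within each library for MCL1 to BCL2, PMAIP1 to MCL1, and BCL2L11 plus BMF to the 3 pro-survival genes, with lines at group means (n = 3). BCL2L11 plus BMF stood at 9.24 per 100 in 2D cells, between 1.04 and 1.89 in 5 mammosphere groups, and at 3.73 in DOX-treated tet-MYCshRNA mammospheres.

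The effects of MUC1 and of MYC silencing were compared by their difference over the 12 libraries of both lines, which share no library. The effects differed for 6 of the 10 genes, where 52.9% of all 21585 genes tested differed. Of the latter 49.1% had the higher value on MUC1 silencing, or 61.2% with library size alone, which gave 8 members. BCL2 was higher on MUC1 silencing and did not pass on MYC silencing, and the difference of the effects was 1.0 ± 0.18 on the log2 scale (adjusted p = 1.49e-04). MCL1 also differed (0.79 ± 0.07, adjusted p = 4.94e-08), as it fell on MYC silencing. BMF and BCL2L11 rose in both lines, and more on MYC silencing: the difference was -0.92 ± 0.28 for BMF (adjusted p = 0.0111) and -0.45 ± 0.10 for BCL2L11 (adjusted p = 1.37e-03). With vehicle BCL2L11 was at 20.1 CPM in the tet-MUC1shRNA line and 15.2 CPM in the tet-MYCshRNA line. With DOX its levels there overlapped, at 31.1 and 31.9 CPM, and the lines also differ in passage. PMAIP1 and BAX differed by 0.90 ± 0.19 and 0.45 ± 0.13 on the log2 scale. For BCL2L1, which fell in both lines, the difference was 0.09 with a 95% interval of -0.14 to 0.32, and for BID it was -0.12 with an interval of -0.34 to 0.10, turning to 0.08 with library size alone.

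The effects of MUC1 silencing and of GO-203 differed for 8 of the 10 genes, where 44.9% of 20829 genes differed. Of these genes 46.4% had the higher value on MUC1 silencing, or 61.6% with library size alone, which gave 6 members, all of them higher. BCL2L11 (0.68 ± 0.10 on the log2 scale, adjusted p = 3.90e-06) and BMF (0.98 ± 0.33, adjusted p = 0.0187) rose with silencing and did not pass with the inhibitor. MCL1 (0.50 ± 0.06, adjusted p = 3.32e-07) and BAX (0.48 ± 0.09, adjusted p = 9.53e-05) had opposite directions, higher on silencing and lower with GO-203. BCL2 rose in both, with a difference of 0.28 and a 95% interval of -0.11 to 0.67. This difference passed without 3D replicate 1 (0.40, adjusted p = 0.0966) or without tet-MUC1shRNA vehicle replicate 2 (0.41, adjusted p = 0.0976). Without 3D replicate 2 it was 0.12 (adjusted p = 0.658). BCL2L1 fell in both, and its difference of 0.15 ± 0.07 (adjusted p = 0.0937) did not pass in 9 of the 12 fits without 1 library.

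**Figure D5:**
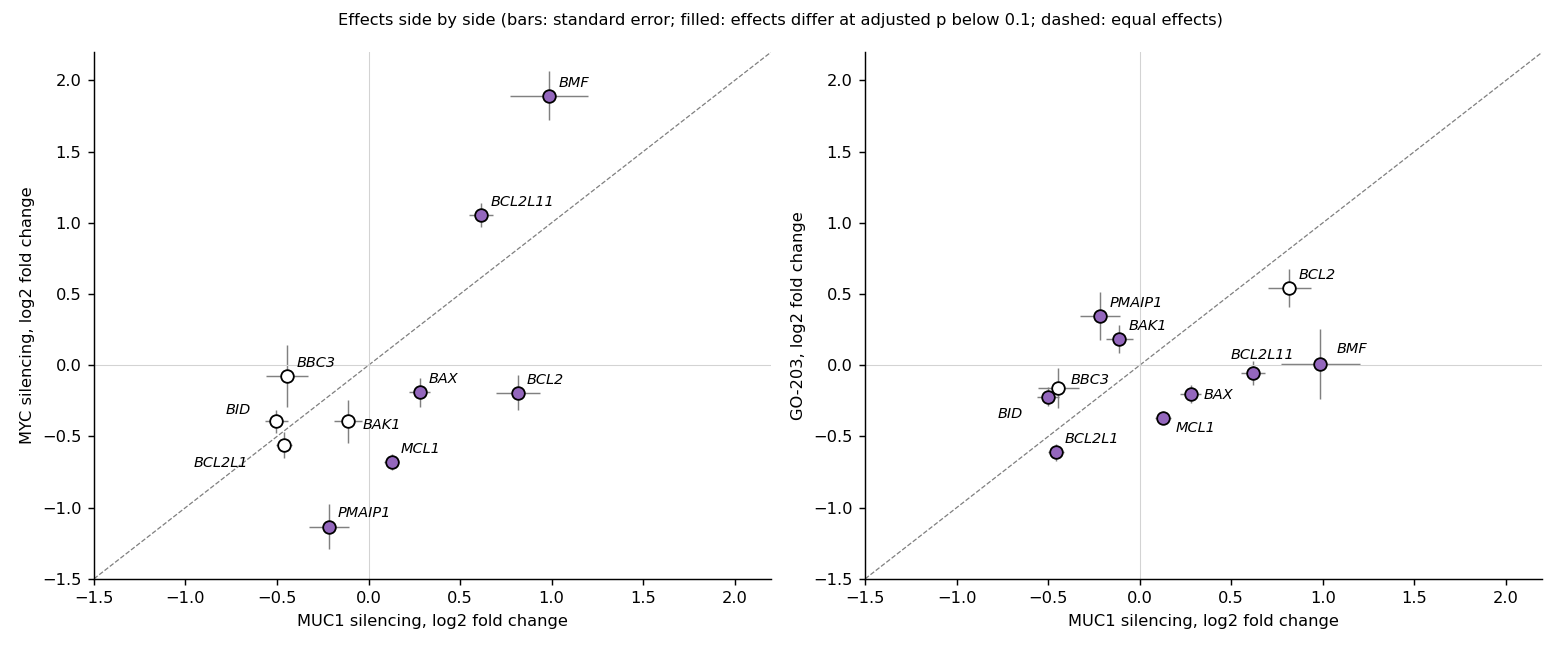
Log2 fold change on MUC1 silencing (horizontal) against that on MYC silencing (left) and with GO-203 (right) for each gene, with standard errors, filled where the effects differed at an adjusted p below 0.1. BMF lay at 0.99 and 1.89 on the left and at 0.99 and 0.01 on the right.

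The control groups themselves were not alike. Over the S6 3D cells and the vehicle-treated groups of both tet lines, BBC3 differed 2.76-fold between its highest and lowest group mean, BAK1 1.84-fold, PMAIP1 1.83-fold and BCL2L1 1.68-fold, each highest in the vehicle-treated tet-MUC1shRNA mammospheres. BMF differed 1.19-fold over the same groups. The S6 3D cells and the vehicle-treated tet-MUC1shRNA mammospheres share their passage number. They differ in line and may differ in vehicle, since that of the 3D cells is not named. The vehicle-treated tet lines share their vehicle but differ in line and passage. Within each pair these differences cannot be told apart. In the order of all 7 groups, BMF was highest in 2D cells (9.43 ± 1.48 CPM), then in DOX-treated tet-MYCshRNA (5.86 ± 1.08) and DOX-treated tet-MUC1shRNA mammospheres (2.60 ± 0.326), each separate from the next, and the other 4 groups overlapped between 1.31 and 1.56 CPM. BCL2L11 followed another order, with overlapping values in both DOX-treated lines (31.9 ± 0.221 and 31.1 ± 1.29 CPM) above 2D cells (26.6 ± 2.82). MCL1 and BCL2L1 were lowest in 2D cells and were separate there from every other group.

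Other genes of the pathway were followed as lists. Their counts stand beside 63.7% of all genes that passed in either direction in 3D cells, 62.2% on MUC1 silencing, 58.5% on MYC silencing and 24.1% with GO-203, and their medians beside -0.01, 0.02, 0.01 and 0.02. With library size alone, the counts higher and lower on MUC1 silencing were 4 and 2 for the caspase and apoptosome genes, 5 and 1 for the inhibitor of apoptosis genes and 5 and 5 for the stress and p53 regulators, and all 5 genes of MCL1 turnover were higher. Of the 8 caspase and apoptosome genes tested, 4 were higher and 2 lower in 3D than in 2D cells, with a median log2 fold change of 0.19 against -0.01 over all genes. CASP6 fell by 1.65 on the log2 scale, and CASP9, the initiator in the apoptosome, rose by 1.42. On MUC1 silencing 3 were higher and 4 lower, among them APAF1, the apoptosome scaffold (-1.09), and CYCS, which encodes cytochrome c (-0.83). On MYC silencing 4 were higher and 3 lower, with CYCS at -1.38 and CASP6 at 1.27. With GO-203, 2 were higher and 2 lower, and CASP8, the initiator downstream of death receptors, fell by 0.53.

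The outer membrane channels VDAC1, VDAC2 and VDAC3 were lower in both silenced lines, except that VDAC3 on MUC1 silencing turned to 0.06 with library size alone. On MYC silencing all 3 fell, by 0.65, 0.65 and 0.69 on the log2 scale (list median -0.65 against 0.01 over all genes). On MUC1 silencing all 3 also fell, VDAC2 most at -0.61, with a list median of -0.44 against 0.02. VDAC3 fell least there, by 0.11 (adjusted p = 0.0522). With GO-203, VDAC1 (-0.23) and VDAC2 (-0.21) fell, and in 3D against 2D cells both were higher, by 0.83 and 0.60. VDAC3 was at -0.09 there (adjusted p = 0.186), and at -0.15 (adjusted p = 0.0286) with library size alone.

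Among the atypical BH3 relatives, BNIP3 and BNIP3L, mitophagy receptors induced by hypoxia, were higher in 3D cells and lower in the other comparisons. BNIP3 measured 59.6 ± 2.56 CPM in 2D and 310 ± 11.3 CPM in 3D cells (log2 2.43), and it fell by 3.48 on MUC1 silencing, from 314 ± 37.9 to 28.1 ± 2.74 CPM. It also fell by 0.62 on MYC silencing and by 0.35 with GO-203. BNIP3L rose by 1.71 in 3D cells and fell by 1.42 on MUC1 silencing. Of the list's 6 genes, 3 were higher and 1 lower in 3D cells, and 3 were higher and 3 lower on MUC1 silencing. BCL2L2, which encodes the pro-survival BCL-W, rose by 0.70 in 3D cells and fell by 0.45 on MUC1 silencing, while BCL2A1 and BCL2L10 had too few counts to be tested. Of the other BH3 genes, neither BAD nor BOK passed in 3D cells, with BAD at 0.37 (adjusted p = 0.142) and BOK at -0.10 (adjusted p = 0.350). BAD fell by 0.64 with GO-203 and rose by 0.48 on MYC silencing, and on MUC1 silencing BOK rose by 0.34 and HRK was at 0.0587 ± 0.0165 CPM with vehicle and 0.314 ± 0.119 CPM with DOX.

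Genes that set the stability of the MCL1 protein were measured only as transcripts. USP9X, a deubiquitinase that stabilises MCL1, rose by 0.27 in 3D cells, 0.40 on MUC1 silencing, 0.80 on MYC silencing and 0.25 with GO-203. HUWE1, a ubiquitin ligase for MCL1, rose by 0.45 in 3D cells and 0.21 on MYC silencing. Of the 5 genes of this list, 3 were higher and 1 lower in 3D cells and likewise on MYC silencing, 3 were higher on MUC1 silencing and 2 with GO-203, and the others did not pass. The list medians were 0.17, 0.24, 0.21 and 0.12. Among inhibitor of apoptosis genes and their antagonists, 3 of 7 were higher and 2 lower in 3D cells, led by BIRC3 at 3.18, and 4 were higher and 2 lower on MYC silencing, with BIRC5 (survivin, also a gene of dividing cells) at -1.07. On MUC1 silencing 3 were higher and 1 lower, and with GO-203 1 and 1.

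Regulators of BH3 genes differed between 2D and 3D cells by up to 6.94 on the log2 scale. FOXO1, a transcription factor known to act on BCL2L11, was at 0.929 ± 0.162 CPM in 2D and 111 ± 7.84 CPM in 3D cells, while BCL2L11 was lower in 3D cells. On MYC silencing FOXO1 rose by 2.22, from 58.1 ± 4.27 to 274 ± 13.6 CPM, and BCL2L11 rose as well. On MUC1 silencing both rose, FOXO1 by 0.40 and BCL2L11 by 0.62. With GO-203, FOXO1 rose by 0.63, and BCL2L11 did not pass. Whether FOXO1 and BCL2L11 are linked in these cells was not tested, and FOXO1 protein was not measured here. FOXO3, another FOXO factor, rose by 1.41 in 3D cells, 0.91 on MYC silencing and 0.17 with GO-203, and it fell by 0.19 on MUC1 silencing (adjusted p = 6.35e-04), or by 0.02 with library size alone (adjusted p = 0.643). CDKN1A, a p53 target as is BBC3, rose by 3.29 in 3D cells, and TP63 was at 1.85 ± 0.108 CPM in 2D and 0.106 ± 0.0256 CPM in 3D cells. On MUC1 silencing the stress genes TRIB3 (-1.45) and DDIT3 (-1.23) fell, and TP63 was at 0.0769 ± 0.0551 CPM with vehicle and 0.300 ± 0.0771 CPM with DOX. Of the 12 genes of this list, 7 were higher and 2 lower in 3D cells (median 0.59), and 7 higher and 3 lower on MYC silencing (median 0.80). On MUC1 silencing 4 of 11 tested were higher and 6 lower (median -0.19), and with GO-203 2 and 2.

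The genes most like a member over the 7 groups were sought among 11583 genes with at least 1 CPM in every group, by the root mean square difference of centred log2 group means. For BMF these were ZNF469 (0.27), SCUBE3 (0.33) and SETBP1 (0.33), for BCL2L1 they were COPS8 (0.17), PRRG1 (0.21) and MCL1 (0.21), and for BBC3 GPRC5A (0.10), MIF4GD (0.14) and SC5D (0.14). ZNF469 was at 23.1 CPM in 2D, 3.61 in 3D, 11.7 in DOX-treated tet-MYCshRNA and 6.37 in DOX-treated tet-MUC1shRNA cells, the order of BMF in these groups. MCL1 was thus the only other member among these near neighbours. It differed in sign from BCL2L1 on MUC1 silencing, with log2 fold changes of 0.13 for MCL1 and -0.46 for BCL2L1.

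Some members share exon sequence with other genes, and the strand setting of the counting is not given in the sources used here. ABALON lies opposite 41.3% of the exon bases of BCL2L1 and was counted at 0.178 to 1.85 CPM. MIR4435-2HG lies opposite 10.8% of those of BCL2L11 and was counted at 22.0 to 39.4 CPM, about the level of BCL2L11 itself. BMF-AS1 lies opposite 8.46% of the exon bases of BMF, and ADAMTSL4-AS1 on the same strand covers 5.27% of those of MCL1. BAK1 has 2 named pseudogenes, with which reads could be shared.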

How the data were processed

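The authors deposited raw counts per gene and library, made with STAR (version 2.7.3a per the labels) on GRCh38 and counted with featureCounts. The annotation release and strand setting are not given in the sources used here. Cells left blank in the deposited count table were read as 0. The 2D and 3D libraries shared a set of 6498 blank genes, and the GO-203 libraries had a different set of 7587. The GO-203 comparison thus spans both sets, whereas each tet line had a single set. The members and gene lists were chosen with earlier results of these data known. Members were matched by Ensembl identifier, with positions and lengths from GENCODE v44, which may differ from the authors' release.

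In R 4.3.3, each pair of groups was fitted on its own 6 libraries with edgeR 4.0.16 (filterByExpr, TMM factors, quasi-likelihood test, Benjamini-Hochberg adjustment over all genes tested). A gene passed at an adjusted p below 0.1, and in a second rule at a fold change above 1.5 as well. Standard errors (SE) are the log2 fold change over the square root of F. Differences of effects were interaction terms over 12 libraries. CPM was scaled by TMM over 21 libraries, and TPM used merged exon lengths. The total counts per library, 38026597 to 99751717, set the counting error, which for the lowest members adds to the spread between cultures. Every member was tested in every comparison, and all 10 are named. From other lists at most 3 genes per comparison are named, those farthest from 0 among the genes that passed, and TNFRSF10A, PECAM1, HRK and TP63 are given as levels where a group lay near 0. BAD and BOK in 3D cells, BNIP3L on MUC1 silencing, FAS and HUWE1 on MYC silencing, FOXO3, FOXO1 on MUC1 silencing, VDAC3 in 3D cells and the overlapping genes fall outside this rule and were chosen after their values were seen. Likeness was measured for the 3 members with the widest range over groups.

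Alternatives were DESeq2 1.42.0, RLE factors, library size alone, fitting genes with at least 1 count, fitting those with 10 or more in each library, a joint fit of all 21 libraries, the replicate block, an adjusted p below 0.05, a fold change above 1.5, an absolute log2 fold change above 1.5, and leaving out each library in turn. The steps were tested on simulated data. Promoter sequences are from RefSeq. Some genes of the pathway lists are not reported here by name.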

Additional observations from a re-analysis of the deposited data

Results flagged for a closer look

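Effects that differed between perturbations were singled out where the interaction test of edgeR passed at an adjusted p below 0.1, and their causes were not tested. Between MUC1 and MYC silencing this applied to 6 genes, where 52.9% of all genes differed. On the log2 scale the effect on MUC1 silencing minus that on MYC silencing was 1.0 for BCL2, 0.79 for MCL1, 0.90 for PMAIP1 and 0.45 for BAX, and it was -0.45 for BCL2L11 and -0.92 for BMF. Without replicate 1 of the DOX-treated tet-MYCshRNA mammospheres these values were 1.08, 0.82, 1.04, 0.37, -0.45 and -1.02, and BBC3 also passed (-0.62, adjusted p = 0.0125).

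Between MUC1 silencing and GO-203 it applied to 8 genes, where 44.9% of all genes differed. The difference was 0.15 for BCL2L1, 0.50 for MCL1, 0.68 for BCL2L11, 0.98 for BMF and 0.48 for BAX. It was -0.56 for PMAIP1, -0.28 for BID and -0.29 for BAK1. At the same threshold on the adjusted p, those of BCL2L1, PMAIP1, BID and BAK1 lost their call under another scaling, filter or joint fit or without 1 library, and with a fold change above 1.5 as well only BCL2L11 and BMF passed. Library size alone gave -0.40 for PMAIP1 (adjusted p = 0.137), -0.12 for BID (adjusted p = 0.277) and -0.14 for BAK1 (adjusted p = 0.373).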

How the results depend on the processing

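No alternative turned the direction of a member that had passed. The values of members were set against those with DESeq2, RLE factors, library size alone, both other filters, the joint fit and the replicate block, and against the lowest and highest log2 value on leaving out 1 library. Of these, 503 kept their side of the threshold, 21 lost the call and 16 gained one. In 7 of the values the sign turned without a call on either side: BMF with GO-203, BAK1 on MUC1 silencing, BBC3 on MYC silencing, and BCL2L1 and BID between MUC1 and MYC silencing. The numbers of members passing moved by more than 1.5 times under these settings. With a fold change above 1.5 as well, 3 members were higher and 0 lower on MUC1 silencing, 0 higher and 1 lower with GO-203, and 2 lower on MYC silencing, and 2 effects differed between MUC1 silencing and GO-203. With an absolute log2 fold change above 1.5, 1 member was lower in 3D cells, 1 was higher and 0 lower on MYC silencing, and 0 passed on MUC1 silencing, with GO-203 or between effects. Without a filter on low counts, 5 effects differed between MUC1 silencing and GO-203. Leaving out 1 library gave 1 to 2 members higher with GO-203, PMAIP1 being gained without 3D replicate 3. DESeq2 gave 5 members higher and 3 lower on MUC1 silencing. With the longest transcript as length, MCL1 made up 68.1% of the members' TPM in 3D cells in place of 70.0%, and the order of BCL2L11 and BBC3 changed. There BCL2 was at 2.505 TPM in place of 1.965, and MCL1 at 625 in place of 606. The size of the MCL1 to BCL2 ratio thus depends on the length used.

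The replicate numbers of the labels did not pair the samples: the mean correlation of same-numbered deviations was -0.02 for 3D against 2D cells, 0.02 for MUC1 silencing, 0.06 for GO-203 and -0.10 for MYC silencing, and in GO-203 all 3 samples correlated best with their own number. With the replicate block, 2 members were higher with GO-203, where PMAIP1 was gained (log2 0.37, adjusted p = 0.0837), and no other count of members changed.

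Depth limits BMF (46 to 610 counts per library), BBC3 (74 to 677) and PMAIP1 (132 to 541) most, and for these a p above the threshold does not tell an absent difference from one too small to detect.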

Other observations

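Some genes of the death receptor route, which reaches the mitochondria through BID, differed widely between groups. TNFRSF10A, a receptor for the ligand TRAIL, had 0.0385 ± 0.0053 CPM in 2D and 20.3 ± 1.08 CPM in 3D cells (SD, n = 3). It was at 21.3 ± 1.28 CPM with vehicle and 67.4 ± 3.03 CPM with DOX in the tet-MUC1shRNA line, and at 48.7 ± 1.0 and 9.50 ± 0.657 CPM in the tet-MYCshRNA line. The decoy receptor TNFRSF10D rose by 3.57 on the log2 scale in 3D cells and fell by 0.86 on MUC1 silencing, 2.07 on MYC silencing and 0.60 with GO-203. FAS rose on both silencings, by 1.36 and 1.0 on the log2 scale, with adjusted p of 2.27e-09 and 1.03e-04 in edgeR. Of the 9 genes of this list, 5 were higher and 2 lower in 3D cells, 4 and 3 on MUC1 silencing, and 5 and 4 on MYC silencing, with medians of 0.31, 0.28 and 0.59 against -0.01, 0.02 and 0.01 over all genes. With GO-203, 3 were lower, TNFRSF10D, TNFRSF10A (-0.52) and TNFRSF1A (-0.14), and the list median was -0.08. With library size alone, 5 were higher and 3 lower on MUC1 silencing.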
